A study of Mus musculus with 20 samples.

Results

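The 3 genes described here encode the receptor PD-1 and both of its ligands: Pdcd1 (PD-1), Cd274 (PD-L1) and Pdcd1lg2 (PD-L2). They were chosen by name, as the target of the antibody used in the study and the molecules it binds, and are 3 of the 55335 genes in the files. PD-1 is a membrane receptor that T cells put on their surface after activation. When a ligand engages it, the phosphatase SHP-2 is recruited and signalling from CD28 and the T cell receptor is dampened. PD-L1 can be made by many cell types, tumour cells included, and interferon-gamma from T cells is its best known inducer, whereas PD-L2 is made mostly by macrophages and dendritic cells. Antibodies against PD-1 block both interactions.

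RNA was sequenced from 20 tumours grown in mice from CT26, a BALB/c colon carcinoma cell line. Tumours came from control cells, labelled vector, or from cells labelled POLE mutant, and animals received either PBS or anti-PD-1, giving 4 groups of 5 tumours: vector PBS, vector anti-PD-1, mutant PBS and mutant anti-PD-1. The design text gives 5 mice per group, and the tumour numbers used below only name a tumour. POLE is the catalytic subunit of a replicative DNA polymerase. The series title names CHEK2 and the labels POLE, so the cells are called mutant here. The labels name no separate clones, so an effect of the mutation and any further difference between both cell lines cannot be told apart. RNA was measured and not protein, and in bulk tumour RNA more cells of a type cannot be told apart from more RNA per cell.

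Values are FPKM, fragments scaled by transcript length and library size, so levels of different genes can be set side by side on this scale. The depth of the libraries is unknown. The mean Spearman correlation of a library with the other 19 was 0.899 to 0.93 in 17 libraries and was lower in vector anti-PD-1 tumour 1 (0.776), mutant anti-PD-1 tumour 1 (0.748) and mutant anti-PD-1 tumour 2 (0.835). Values without these 3 libraries are given where they change a call. T cell markers were near the floor in vector PBS tumours, where the 12 genes of the T cell list summed to 1.32 to 3.2 FPKM, against 59.4 to 105 FPKM in mutant anti-PD-1 tumours. The epithelial list, which could mark a carcinoma, was low in all groups, with sums of 2 to 26.9 FPKM.

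In the mm10 build, Pdcd1 lies on the minus strand of chromosome 1 at 94038305 to 94052553. Cd274 and Pdcd1lg2 are neighbours on the plus strand of chromosome 19, at 29367455 to 29388095 and 29410919 to 29471161, with 22.8 kb between them. An antisense gene, AC119228.1, lies inside Cd274 at 29373417 to 29384471, and A930007I19Rik overlaps the end of Pdcd1lg2 on the opposite strand. Whether the counting used strand is not given in the sources used here, so reads of these pairs cannot be told apart. The 129 bases before each start site are shown because the ligands share a neighbourhood and all 3 genes rose in the same tumours. They are RefSeq promoter sequences of build GRCm38.p6, at chr1:94052554-94052682 on the minus strand for Pdcd1, chr19:29367309-29367437 on the plus strand for Cd274 and chr19:29410790-29410918 on the plus strand for Pdcd1lg2. Capitals mark the bases that match a motif.
Pdcd1: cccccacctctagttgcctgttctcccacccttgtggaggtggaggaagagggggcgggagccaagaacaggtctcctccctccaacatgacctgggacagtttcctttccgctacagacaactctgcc
Cd274: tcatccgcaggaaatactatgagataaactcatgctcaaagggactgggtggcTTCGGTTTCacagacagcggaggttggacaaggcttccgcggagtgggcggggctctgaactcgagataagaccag
Pdcd1lg2: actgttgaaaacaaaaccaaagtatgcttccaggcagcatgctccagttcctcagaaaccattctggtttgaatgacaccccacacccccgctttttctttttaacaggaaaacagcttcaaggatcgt

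Motifs were searched on both strands in the 250 bases before the start site. The interferon regulatory factor motif GAAANNGAA had 1 match in the Cd274 promoter, on the opposite strand at bases -76 to -68 from the start site, and none in the other two. Of 32851 promoters of the same length, 7.13% held this motif. The STAT motif TTCNNNGAA (7.02% of promoters), the AP-1 motif TGANTCA (6.75%) and the NFAT motif TGGAAA (18.6%) had no match in any of the 3. A match is a description of letters and not of binding. The divergent gene Plgrkt starts just upstream of Cd274, and one of its transcripts covers the matched bases. GC content of the 250 bases was 60.4% for Pdcd1, 50.4% for Cd274 and 48.4% for Pdcd1lg2, against a median of 52.4% over all promoters.

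All 3 genes stood highest in mutant tumours given anti-PD-1, where every tumour exceeded all 15 others. The share of all genes that separate in this way is not given here. Of all tested genes, 15.9% were called higher there than in mutant PBS tumours and 17.8% higher than in vector anti-PD-1 tumours. Pdcd1, the receptor gene, was at 14.9, 17.6, 26.6, 19.8 and 19.6 FPKM in mutant anti-PD-1 tumours 1 to 5. In mutant PBS tumours it was at 0.832, 1.52, 6.36, 0.298 and 0.102 FPKM. These groups did not overlap, and tumour 3 of the PBS group stood above its 4 companions. Vector tumours held little Pdcd1 under either treatment: 0.131, 1.25, 0.343, 1.13 and 0.744 FPKM with anti-PD-1, and 0.108, 0.283, 0.412, 0.0901 and 0.0772 FPKM with PBS. The vector groups overlapped. By means the order was vector PBS (0.194 ± 0.148 FPKM, SD, n = 5), vector anti-PD-1 (0.719 ± 0.484), mutant PBS (1.82 ± 2.6) and mutant anti-PD-1 (19.7 ± 4.32), and each of the first 3 groups overlapped its neighbour in that order.

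Cd274, the PD-L1 gene, was expressed in every tumour and was the most abundant of the 3. Mutant anti-PD-1 tumours held 71.6, 69.9, 72.2, 79.6 and 66.9 FPKM, a narrow range. Mutant PBS tumours held 10.1, 12.7, 32.2, 22.1 and 7.86 FPKM, with tumours 3 and 4 highest. Vector anti-PD-1 tumours held 1.22, 8.29, 10.2, 19 and 8.58 FPKM, and tumour 1, whose library correlated poorly with the others, was the lowest of all 20. Vector PBS tumours held 4.47, 4.56, 3.69, 5.31 and 4.8 FPKM. All mutant PBS tumours were therefore above all vector PBS tumours, a separation that neither Pdcd1 nor Pdcd1lg2 showed. The share of all genes that separate these groups is not given here, and 0.529% were called higher in mutant PBS tumours. The means ran from 4.57 ± 0.59 FPKM (SD, n = 5) in vector PBS through 9.45 ± 6.35 in vector anti-PD-1 and 17 ± 10.1 in mutant PBS tumours to 72 ± 4.71 in mutant anti-PD-1, and vector anti-PD-1 overlapped both vector PBS and mutant PBS.

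Pdcd1lg2, the PD-L2 gene, was low everywhere except in mutant anti-PD-1 tumours, which held 9.97, 9.99, 9.57, 13.3 and 10.3 FPKM. Mutant PBS tumours held 0.313, 0.794, 3.98, 0.47 and 0.571 FPKM, and the high value was again tumour 3. Vector PBS tumours held 0.14, 0.555, 0.451, 1.38 and 0.715 FPKM, and vector anti-PD-1 tumours 0.361, 0.507, 0.792, 0.783 and 0.464 FPKM. These 3 groups overlapped and their means, 1.22 ± 1.55, 0.649 ± 0.462 and 0.581 ± 0.196 FPKM (SD, n = 5), did not separate, whereas the mutant anti-PD-1 mean was 10.6 ± 1.52. The low genes were near the filter of the test, which kept genes at 1 FPKM or more in at least 5 libraries: Pdcd1 reached 1 FPKM in 9 libraries, Cd274 in 20 and Pdcd1lg2 in 7. All 3 genes passed, but Pdcd1 and Pdcd1lg2 did so only through the mutant anti-PD-1 libraries, the group in which they stood highest.

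**Figure D1:**
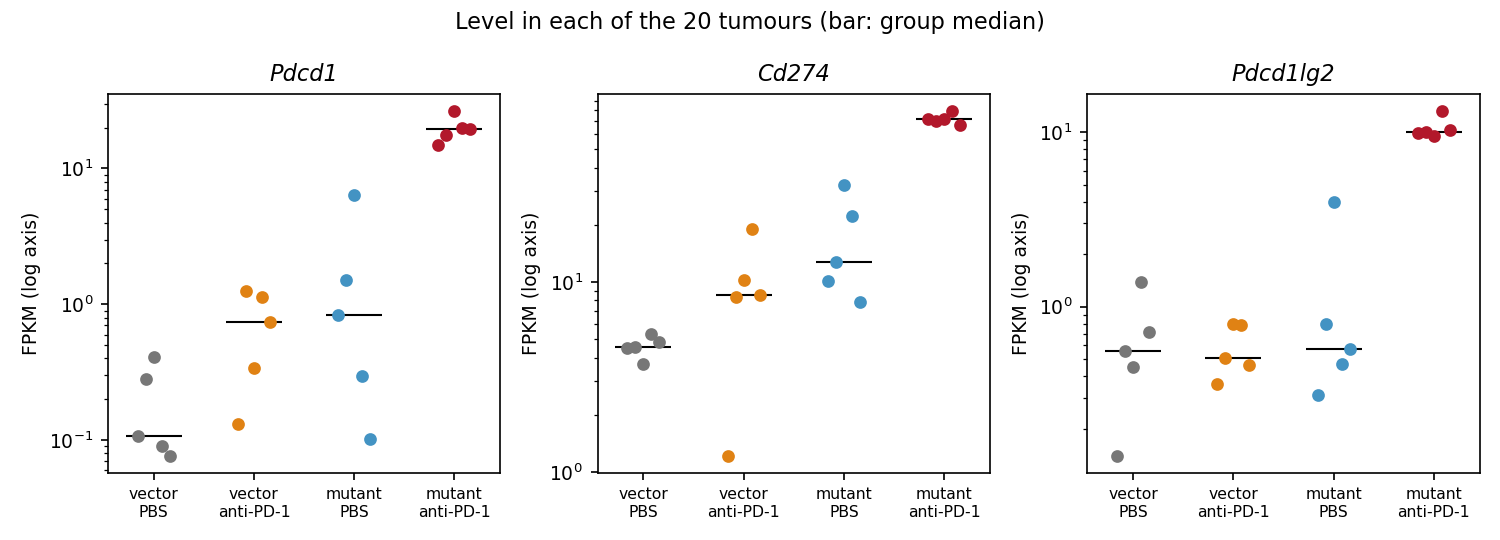
Level of Pdcd1, Cd274 and Pdcd1lg2 in FPKM (log axis) in each tumour of the 4 groups, 1 point per tumour and a bar at the group median. Mutant anti-PD-1 tumours lie above all others for each gene, and only Cd274 separates mutant PBS (7.86 to 32.2) from vector PBS (3.69 to 5.31).

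The comparison of anti-PD-1 with PBS asks how the pathway's own genes stood after its receptor was blocked. In mutant tumours all 3 rose. The ratio of mean FPKM was 10.8 for Pdcd1, 4.23 for Cd274 and 8.68 for Pdcd1lg2. On the log2(FPKM + 1) scale, which understates the change of low genes, Pdcd1 rose by 3.30 ± 0.351 (SE; limma adjusted p = 8.86e-06), Cd274 by 2.17 ± 0.429 (limma adjusted p = 0.00109) and Pdcd1lg2 by 2.57 ± 0.28 (limma adjusted p = 1.1e-05). Of the 13982 genes tested, 15.9% rose and 14.6% fell in this comparison, so a rise by itself was common. Pdcd1 and Pdcd1lg2 entered the test only through the mutant anti-PD-1 libraries. The filter thus favoured a rise in them, and shares of tested genes are not an even reference in any comparison with that group. The median change over all tested genes was -0.10. The 3 calls held when each of the 10 mutant libraries, or vector anti-PD-1 tumour 1, was left out in turn.

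In vector tumours none of the 3 passed, and neither did any other gene: 0% were called higher and 0% lower by limma, with 426 genes at an unadjusted p under 0.05. The log2 change was 0.49 ± 0.347 for Pdcd1 (limma adjusted p = 0.724), 0.62 ± 0.425 for Cd274 (limma adjusted p = 0.724) and -0.03 ± 0.277 for Pdcd1lg2 (limma adjusted p = 0.973). Without vector anti-PD-1 tumour 1, the Cd274 value was 1.11 ± 0.303, still with an adjusted p of 1. The difference between the responses of mutant and vector tumours was itself tested. It was 2.81 ± 0.494 for Pdcd1 (limma adjusted p = 0.00378) and 2.60 ± 0.394 for Pdcd1lg2 (limma adjusted p = 0.00236), in a comparison where 7.4% of genes were called higher. For Cd274 it was 1.55 ± 0.604 and missed the threshold (limma adjusted p = 0.108), so a larger Cd274 response in mutant tumours was not established. That p lay between 0.0437 and 0.208 when single libraries were left out, and was under 0.05 without mutant PBS tumour 3 (1.81, adjusted p = 0.0437) or without vector anti-PD-1 tumour 4 (1.86, adjusted p = 0.0445).

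Between mutant and vector tumours given PBS, 0.529% of genes were called higher and 0.923% lower, and none of the 3 was among them. Cd274 came nearest, at 1.53 ± 0.425 (limma adjusted p = 0.0938). Its groups did not overlap (ratio of means 3.73). The exact two-sided permutation test of this single gene gave p = 0.00794, the smallest that 5 against 5 tumours allow. That p follows from the separation already seen and is not adjusted over genes. Without vector anti-PD-1 tumour 1, which enters only through the shared spread, the value was 1.53 with a limma adjusted p of 0.0051. Pdcd1 differed by 0.87 ± 0.347 (limma adjusted p = 0.313) and Pdcd1lg2 by 0.27 ± 0.277 (limma adjusted p = 0.85), and the groups of both overlapped. Without mutant PBS tumour 3 the Pdcd1 value was 0.45 and the Pdcd1lg2 value -0.09.

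Under anti-PD-1, mutant tumours exceeded vector tumours for all 3 genes, in a comparison where 17.8% of genes were called higher. The difference was 3.69 ± 0.351 for Pdcd1 (limma adjusted p = 1.94e-06), with a ratio of means of 27.4. It was 3.08 ± 0.429 for Cd274 (limma adjusted p = 4.31e-05), with a ratio of 7.62, and 2.87 ± 0.28 for Pdcd1lg2 (limma adjusted p = 2.59e-06), with a ratio of 18.3. This comparison and that of anti-PD-1 with PBS in mutant tumours share the mutant anti-PD-1 libraries and are not independent.

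The receptor was next set against T cell content. The T cell score averages log2(FPKM + 1) over 10 tested genes of T cell receptor and signalling proteins. The mean FPKM of Cd3d, Cd3e and Cd3g, the signalling chains of the T cell receptor, was 0.125 with PBS and 0.494 with anti-PD-1 in vector tumours, against 1.08 and 10.3 in mutant tumours. Pdcd1 divided by that CD3 mean was 1.64 ± 0.805 (SD, n = 5), 1.42 ± 0.774, 1.72 ± 0.594 and 2.02 ± 0.668 in those groups. By tumour, the ratio was 1.03, 1.74, 2.75, 2.44 and 2.16 in mutant anti-PD-1 tumours and 2.55, 1.84, 1.61, 1.71 and 0.886 in mutant PBS, and the groups overlapped. On the log2 scale with 0.1 FPKM added, the ratio differed between these groups by 0.32 (exact two-sided permutation p = 0.341, adjusted p = 0.455 over the 12 ratio tests). A difference was not detected in any of the 4 contrasts of this ratio, the largest being 0.63 between mutant and vector under anti-PD-1 (exact p = 0.135, adjusted p = 0.405). Against Cd8a, the CD8 coreceptor chain, the Pdcd1 ratio was 1.25 ± 0.49 with PBS and 1.32 ± 0.223 with anti-PD-1 in mutant tumours, and 1.55 ± 0.754 with anti-PD-1 in vector tumours. Cd8a was listed at 0 in 1 vector PBS tumour, and the remaining 4 gave 4.52 ± 2.86 at Cd8a levels of at most 0.128 FPKM.

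Over the 15 tumours outside the mutant anti-PD-1 group, which lay above all others in the T cell score and in the 3 genes but overlapped them in the interferon-gamma and mature dendritic cell scores, 10 relations were computed and adjusted together. Tumours were resampled without regard to group. Each r and its p therefore also hold differences between the groups, and not only a relation among like tumours. Pdcd1 followed the T cell score with r = 0.932 (n = 15; permutation p = 7e-05, adjusted p = 0.000233; Spearman rho 0.846, permutation p = 0.00017, adjusted p = 0.000567). Without the 2 tumours farthest from the median score, mutant PBS tumour 3 and vector anti-PD-1 tumour 4, r was 0.76. Animal identifiers in the titles take 2 forms whose meaning the labels do not give, and within each form r was 0.93 (9 tumours) and 0.762 (6 tumours). The relation to Ifng, the interferon-gamma gene, was 0.838 (n = 15; permutation p = 0.00316, adjusted p = 0.0079; rho 0.589, permutation p = 0.0227, adjusted p = 0.0455) and fell to 0.355 without those tumours, so it rests on them.

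With the T cell score as a term in the limma fit over all 20 libraries, the slope within groups was 1.30 ± 0.301 for Pdcd1 (limma adjusted p = 0.0197) and 1.22 ± 0.184 for Pdcd1lg2 (limma adjusted p = 0.000956), where 3.85% of genes had a rising slope. For Cd274 it was 1.40 ± 0.411 (limma adjusted p = 0.0693). Both calls rested on mutant PBS tumour 3: without it the slope was 0.12 for Pdcd1 (limma adjusted p = 0.924) and 0.65 for Pdcd1lg2 (limma adjusted p = 0.312). That of Cd274 moved the other way, to 2.73 (limma adjusted p = 0.0674). Without the 3 poorly correlated libraries the Pdcd1 and Pdcd1lg2 slopes were 1.38 and 1.33 (limma adjusted p = 0.000362 and 0.000451), and that of Cd274 was 1.12 and passed (limma adjusted p = 0.0119).

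At equal T cell score, the anti-PD-1 difference in mutant tumours was 0.43 ± 0.71 for Pdcd1 (limma adjusted p = 0.889), -0.93 ± 0.97 for Cd274 (limma adjusted p = 0.879) and -0.12 ± 0.433 for Pdcd1lg2 (limma adjusted p = 0.949). Between mutant and vector under anti-PD-1 it was 0.69 ± 0.739, -0.15 ± 1.01 and 0.06 ± 0.451, each with a limma adjusted p of 1. With this score in the fit, 0% of genes were called higher in either comparison. The scores of mutant anti-PD-1 tumours (2.6 to 3.26) lay above those of all others (at most 1.81), so these values extend the within-group slopes beyond the data and their SEs are wide. A single library decided these values. Without mutant PBS tumour 3, the anti-PD-1 difference in mutant tumours at equal T cell score was 3.39 ± 1.55 for Pdcd1 (limma adjusted p = 0.263), -4.27 ± 2.21 for Cd274 (limma adjusted p = 0.311) and 1.31 ± 0.986 for Pdcd1lg2 (limma adjusted p = 0.471). The difference between mutant and vector under anti-PD-1 was then 3.38, -3.19 and 1.35 in the same order (limma adjusted p = 0.274, 0.444 and 0.466). Without the 3 poorly correlated libraries, the anti-PD-1 difference in mutant tumours was 0.83 for Pdcd1, -0.15 for Cd274 and -0.25 for Pdcd1lg2.

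PD-L1 was set against interferon-gamma genes in the same way. The interferon-gamma response score averages 22 tested genes such as Cxcl9 and the guanylate-binding proteins. Cd274 followed this score over the 15 tumours with r = 0.914 (n = 15; permutation p = 1e-05, the smallest 100000 resamples give, adjusted p = 5e-05; rho 0.868, permutation p = 9e-05, adjusted p = 0.00045) and r = 0.863 without the 2 extreme tumours. Within the 2 identifier forms r was 0.918 and 0.962. Against Ifng itself r was 0.833 (n = 15; permutation p = 1e-05, adjusted p = 5e-05; rho 0.856, permutation p = 9e-05, adjusted p = 0.00045), and 0.842 without the extremes. The relation of Cd274 to the T cell score was looser, at r = 0.636 (n = 15; permutation p = 0.0101, adjusted p = 0.0168; rho 0.5, permutation p = 0.0597, adjusted p = 0.0853), and 0.253 without the extremes, so it rests on them. Mutant PBS tumour 4 shows how the 2 measures part: Cd274 was at 22.1 FPKM there while the mean CD3 level was 0.175 FPKM.

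The slope of Cd274 on the interferon-gamma response score was 0.79 ± 0.134 (limma adjusted p = 0.00194), where 3.51% of genes had a rising slope, and it held without mutant PBS tumour 3 (0.82, limma adjusted p = 0.0227) and without the 3 poorly correlated libraries (0.68, limma adjusted p = 0.000659). Pdcd1 had a slope of 0.53 ± 0.141 (limma adjusted p = 0.0443) that did not hold without mutant PBS tumour 3 (0.26, limma adjusted p = 0.222) or without the 3 libraries (0.44, limma adjusted p = 0.138). Pdcd1lg2 had 0.33 ± 0.129 (limma adjusted p = 0.136). The interferon-gamma scores were 5.10 to 6.31 in mutant anti-PD-1 tumours and 2.89 to 5.51 in mutant PBS tumours, of which only tumour 3 reached that range. Values at equal interferon-gamma score therefore lean on the fitted slope and do not compare matched tumours. At equal interferon-gamma score, the Cd274 difference between anti-PD-1 and PBS in mutant tumours was 0.68 ± 0.357 and missed the threshold (limma adjusted p = 0.158), against 2.17 with no score in the fit. Pdcd1 and Pdcd1lg2 remained higher, by 2.30 ± 0.375 (limma adjusted p = 0.00402) and 1.95 ± 0.344 (limma adjusted p = 0.00497), where 8.2% of genes were called higher. Both calls were lost without the 3 poorly correlated libraries, at 2.80 and 1.61 (limma adjusted p = 0.0855 and 0.251).

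Under anti-PD-1 the interferon-gamma scores of mutant tumours (5.10 to 6.31) and vector tumours (2.26 to 4.81) did not overlap. Under PBS they met only at the edge (2.89 to 5.51 and 2.24 to 2.98). The genotype values at equal score thus extend the within-group slopes. Mutant against vector under anti-PD-1 at equal interferon-gamma score gave 2.39 ± 0.434 for Pdcd1 (limma adjusted p = 0.00701) and 2.06 ± 0.398 for Pdcd1lg2 (limma adjusted p = 0.00935), where 3.26% of genes were called higher. Without the 3 poorly correlated libraries Pdcd1 kept its call (2.88, limma adjusted p = 0.0283) and Pdcd1lg2 lost it (1.76, limma adjusted p = 0.105). Cd274 gave 1.15 ± 0.413 (limma adjusted p = 0.0773). Under PBS, the Cd274 difference of 1.53 between mutant and vector was 0.29 ± 0.327 at equal interferon-gamma score (limma adjusted p = 0.682) and 0.98 ± 0.374 at equal T cell score (limma adjusted p = 0.25). The latter passed without the 3 poorly correlated libraries (1.09, limma adjusted p = 0.00657).

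**Figure D2:**
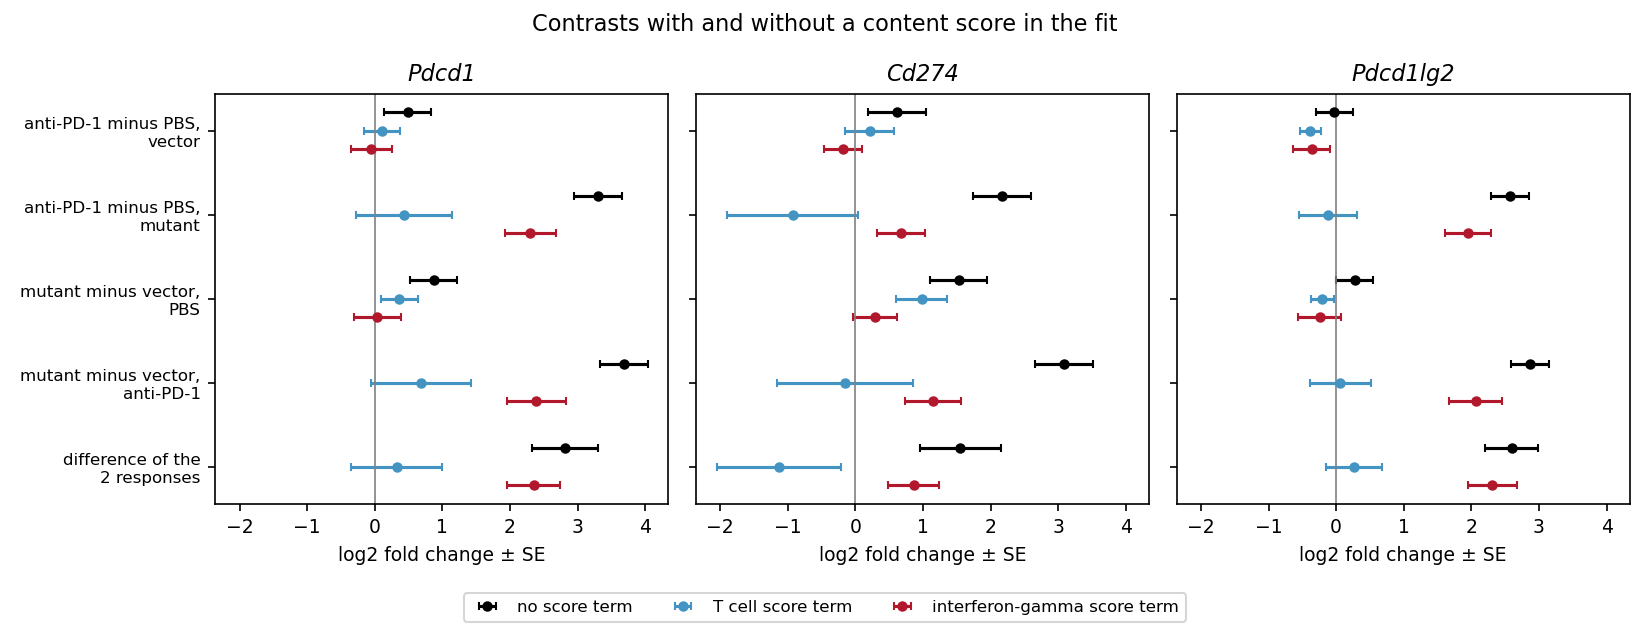
Log2 fold change ± SE (horizontal axis) of each gene in 5 contrasts (vertical axis), from limma fits with no score term (black), a T cell score term (blue) and an interferon-gamma response score term (red). In mutant tumours the anti-PD-1 difference in Cd274 is 2.17 with no score and 0.68 with the interferon-gamma score, while that in Pdcd1 is 3.30 and 2.30.

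**Figure D3:**
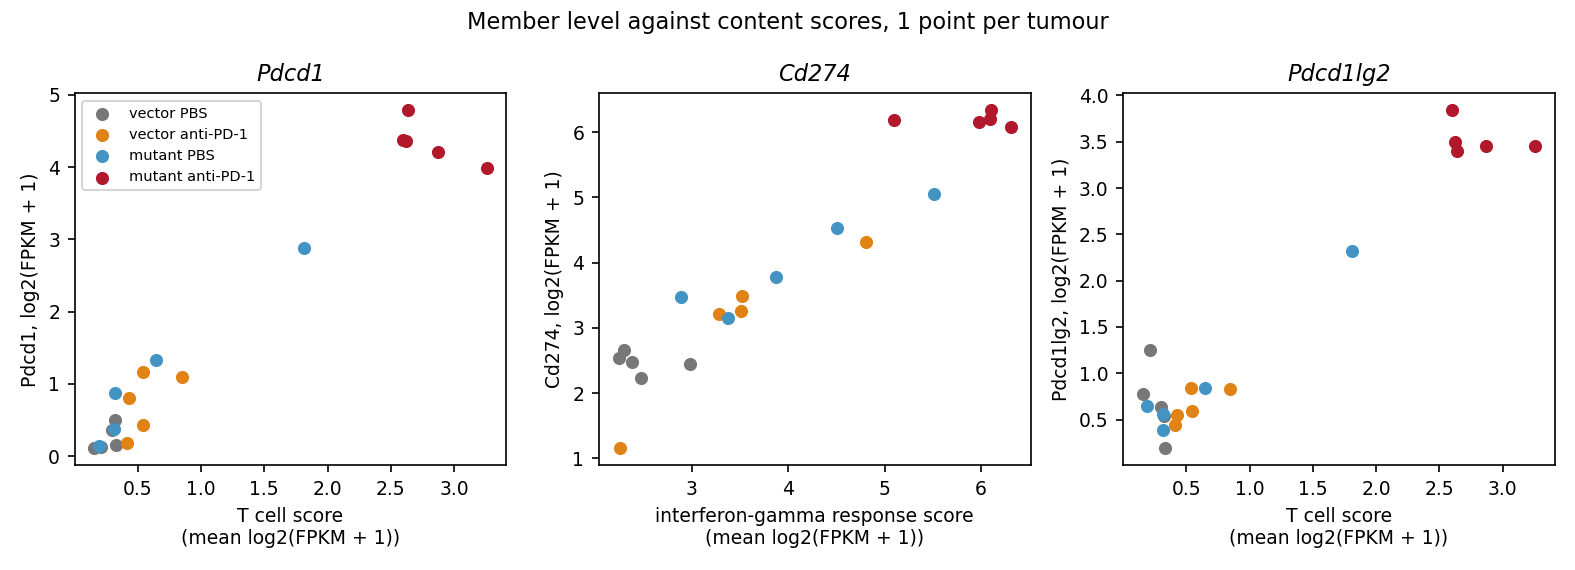
Pdcd1 against the T cell score, Cd274 against the interferon-gamma response score and Pdcd1lg2 against the T cell score, all as log2(FPKM + 1), 1 point per tumour coloured by group. In the T cell panels mutant anti-PD-1 tumours lie apart at the upper right, with mutant PBS tumour 3 as the single point between them and the rest. On the interferon-gamma axis mutant PBS tumour 3 lies to the right of mutant anti-PD-1 tumour 1.

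Cd274 minus the mean of the interferon-gamma response genes, on the log2 scale, was 0.27 ± 0.486 (SD, n = 5) with anti-PD-1 and -0.03 ± 0.391 with PBS in mutant tumours, and -0.39 ± 0.44 and 0 ± 0.376 in vector tumours. No contrast passed after adjustment, the largest being 0.66 between mutant and vector under anti-PD-1 (exact two-sided permutation p = 0.0318, adjusted p = 0.19).

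PD-L2 was compared with the myeloid cells that can make it. Pdcd1lg2 minus the mean of 15 macrophage and monocyte genes was -2.71 ± 0.635 (SD, n = 5) with anti-PD-1 and -3.62 ± 0.399 with PBS in mutant tumours, and -4.11 ± 0.251 and -4.03 ± 0.586 in vector tumours. Under anti-PD-1 it was higher in all 5 mutant than in all 5 vector tumours, by 1.40 (exact two-sided permutation p = 0.00794, adjusted p = 0.0952), and the anti-PD-1 difference in mutant tumours was 0.91 (exact p = 0.0476, adjusted p = 0.19). Neither passed after adjustment. With a smaller pseudocount they were 2.47 and 1.81, and with Csf1r and Adgre1 as the macrophage reference 0.57 and 0.29. Over the 15 tumours the relation of Pdcd1lg2 to the macrophage score had r = 0.446 (n = 15; permutation p = 0.1, adjusted p = 0.1; rho 0.179, permutation p = 0.525, adjusted p = 0.584), that to the mature dendritic cell score 0.564 (permutation p = 0.0456, adjusted p = 0.0507; rho 0.043, permutation p = 0.884, adjusted p = 0.884) and that to the interferon-gamma score 0.541 (permutation p = 0.0378, adjusted p = 0.0507; rho 0.361, permutation p = 0.188, adjusted p = 0.235). None passed, and without the 2 extreme tumours r was -0.107, -0.302 and -0.088.

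**Figure D4:**
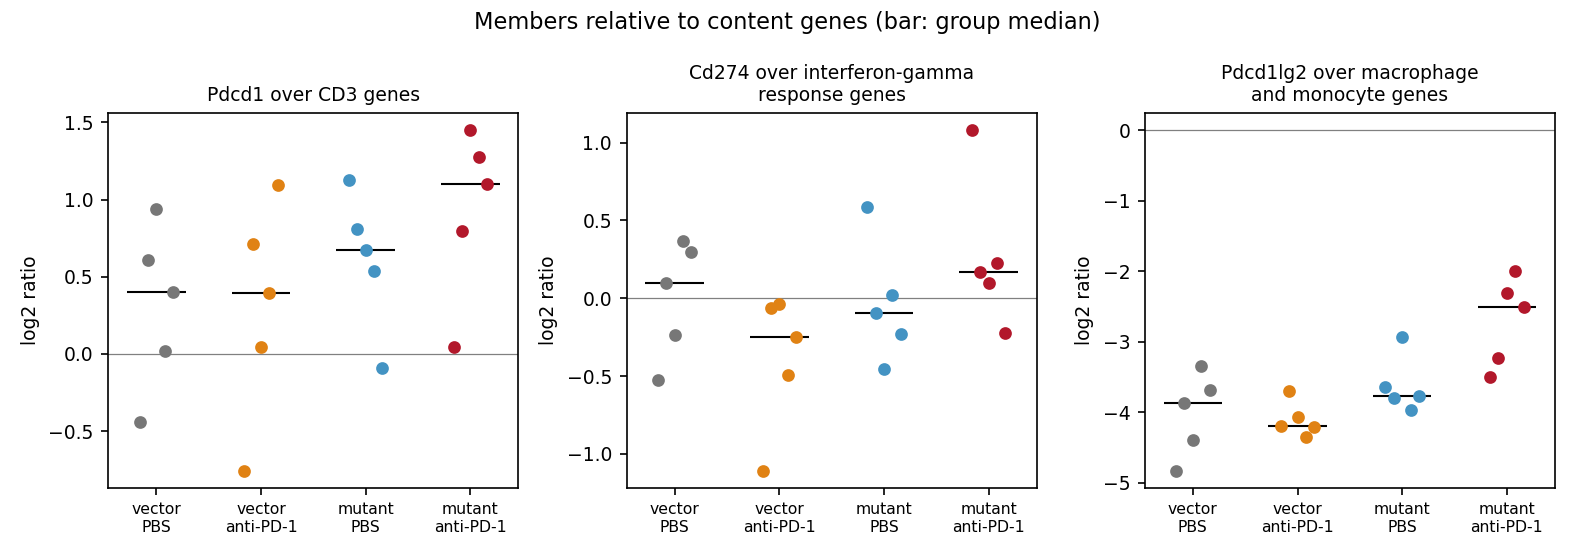
Log2 ratios per tumour by group, with a bar at the group median: Pdcd1 over the CD3 genes, Cd274 over the interferon-gamma response genes and Pdcd1lg2 over the macrophage and monocyte genes. The groups overlap for the first ratio, and for the third all mutant anti-PD-1 tumours (-3.5 to -2) lie above all vector anti-PD-1 tumours (-4.36 to -3.7).

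The balance of the ligands also varied. The ratio of Cd274 to Pdcd1lg2 in FPKM was 7.18, 6.99, 7.55, 5.98 and 6.46 in mutant anti-PD-1 tumours, a mean of 6.83 ± 0.616 (SD, n = 5). It was 32.4, 16, 8.1, 47.1 and 13.8 in mutant PBS tumours, 3.37, 16.3, 12.9, 24.2 and 18.5 in vector anti-PD-1 tumours, and 31.8, 8.23, 8.19, 3.84 and 6.71 in vector PBS. PD-L1 RNA thus exceeded PD-L2 RNA in every tumour, and the ratio was most uniform where both were high. Outside the mutant anti-PD-1 group the ratio divides by Pdcd1lg2 values mostly under 1 FPKM, and it is given with no test. Over the 15 tumours Cd274 and Pdcd1lg2 had r = 0.543 (permutation p = 0.0416, adjusted p = 0.0507; rho 0.514, permutation p = 0.0518, adjusted p = 0.0853), with 0.726 within one identifier form and -0.572 within the other. Pdcd1 and Cd274 had r = 0.692 (permutation p = 0.004, adjusted p = 0.008; rho 0.629, permutation p = 0.0142, adjusted p = 0.0355) and 0.518 without the 2 extremes.

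Among the 13982 genes tested, the 10 with the highest Pearson correlation to Pdcd1 over the 20 libraries were Cd8a (r = 0.994), Cd8b1 (0.99), Trac, Cd3e, Cxcr6, Cd3g, Nrgn, Il18r1, Lag3 and Cd28 (0.981). Most are T cell receptor, CD8 or T cell surface genes. For Cd274 they were Nlrc5 (0.979), Parp10, Itgal, Rap1gap2, Gbp5, Gbp6, Tap1, Samhd1, Znfx1 and Irgm2 (0.962), among which Nlrc5 drives MHC class I genes, Tap1 carries peptides for them, and the Gbp and Irgm genes are interferon-induced GTPases. For Pdcd1lg2 they included Cd28 (0.984), Ikzf3, Il12rb2, C4a, Cd3e, Nrgn, Slamf7, Il18r1 and Cd27 (0.974). The lists of Pdcd1 and Pdcd1lg2 shared 4 of 10 genes (Cd28, Cd3e, Il18r1 and Nrgn), and Cd274 shared 0 with either. Pdcd1lg2 ranked 50 of all genes by likeness to Pdcd1 and 360 by likeness to Cd274, its neighbour on the chromosome. These correlations are dominated by the mutant anti-PD-1 group and are descriptions.

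Removing the 4 group means left the variation among tumours of a group. On that measure the 5 genes most like Pdcd1 were Cd8a (0.965), Trac, Cd8b1, Il18r1 and Sh2d2a (0.885). Those most like Cd274 were Tapbp (0.928), Stat3, Irf5, H2-Q10 and Socs1 (0.919), and those most like Pdcd1lg2 were Cd28 (0.86), Rinl, C4a, Irf4 and Ikzf3 (0.813). Irf4 is a factor with known roles in dendritic cells and activated lymphocytes. The correlation of Cd274 with Pdcd1lg2 was 0.522 on this measure, and that of Pdcd1 with Pdcd1lg2 was 0.705. Mutant PBS tumour 3 is among these tumours, far above its companions in Pdcd1 (6.36 FPKM) and Pdcd1lg2 (3.98 FPKM). So is vector anti-PD-1 tumour 1, the lowest in Cd274 (1.22 FPKM). The correlations were not computed without them and can rest on single tumours.

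The genes around the receptor were described in lists, as counts in the anti-PD-1 against PBS comparison of mutant tumours beside the 15.9% of all genes that rose and their median of -0.10. All 10 tested T cell genes rose, with a median of 2.19, among them Zap70 (2.12), the kinase of the T cell receptor, and Cd28 (1.72), the costimulatory receptor that PD-1 dampens. All 10 CD8 and cytotoxic genes rose (median 3.09), among them the chemokine gene Ccl5 (4.59) and Cd8b1 (3.20). Cd3d, Cd3e, Cd3g, Cd8a and Ifng of these lists passed the filter only through the mutant anti-PD-1 libraries, where they were high. For the other list genes, the libraries that reached the filter are not given here. The filter therefore favoured full counts, and the share of all genes is not an even reference for them. The same can hold for the lists below, which also contain low genes such as Cd160, Btla and Prkcq. Of 9 other inhibitory receptors, 8 rose (median 1.73). Lag3, which binds MHC class II, rose by 2.51 ± 0.262 (limma adjusted p = 8.58e-06), Havcr2 (TIM-3) by 2.19, Cd96 by 1.94 and Ctla4 by 1.84, against 3.30 for Pdcd1. Tigit was at 0.06 ± 0.3 (limma adjusted p = 0.912). The counts of the T cell, CD8 and inhibitory receptor lists were the same without the 3 poorly correlated libraries and without mutant PBS tumour 3.

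Of 12 tested genes for factors that control Pdcd1 transcription, 6 rose and 1 fell (median 0.75). Tbx21 (T-bet) rose by 1.68, Nfatc2 by 1.36, Eomes by 1.13, Batf by 1.68 and Prdm1 by 0.83 (limma adjusted p = 0.0424). The list does not sort activators from repressors. Nfatc1, the calcium-driven activator of Pdcd1, rose by 0.66 ± 0.199 (limma adjusted p = 0.0179), and Nr4a2 fell by 0.65 ± 0.188 (limma adjusted p = 0.0141). Without the 3 poorly correlated libraries 5 rose and 0 fell. Of 10 signalling partners of PD-1, 8 rose (median 1.81). The phosphatase gene Ptpn6 (SHP-1) rose by 1.97, whereas Ptpn11 (SHP-2), the main phosphatase of PD-1 and a gene of most cell types, was at -0.29 ± 0.188 (limma adjusted p = 0.253).

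Of 5 tested genes for B7 family members and other binding partners, Cd86 rose by 1.17 ± 0.179 and Icosl by 0.86 ± 0.179. Cd80, which binds CD28, CTLA-4 and also PD-L1, fell by 0.61 ± 0.14 (limma adjusted p = 0.00333), from a mean of 8.56 FPKM in mutant PBS to 5.47 in mutant anti-PD-1 tumours. Rgmb, a binding partner of PD-L2, was at -0.17 ± 0.207 (limma adjusted p = 0.565). Cd276 (B7-H3) was at 0.40 ± 0.383 (limma adjusted p = 0.459).

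Upstream of PD-L1, 7 of 11 interferon-gamma signalling genes rose (median 0.65). Ifng rose by 2.26 ± 0.325, from a mean of 1.25 to 8.02 FPKM. Irf1, a direct activator of the Cd274 promoter, was at 0.64 ± 0.485 and did not pass (limma adjusted p = 0.336), and Jak2, the kinase of the interferon-gamma receptor, rose by 0.62 ± 0.188. Of 22 interferon-gamma response genes 20 rose (median 1.91), and of 11 type I interferon response genes 10 rose (median 1.54). In the comparison of mutant with vector under PBS, where Cd274 separated the groups, 5 of the 22 interferon-gamma response genes rose (median 1.34), among them Ubd (2.93) and Cxcl9 (3.29), and 0 of the 11 type I genes did (median 0.14), beside 0.529% of all genes called higher there and a median of 0.002.

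Of 12 genes for proteins that act on PD-L1 after translation, 1 rose and 4 fell (median -0.03). Cmtm6, which keeps PD-L1 at the cell surface, rose by 0.63 ± 0.205 (limma adjusted p = 0.0262). Its relative Cmtm4 fell by 0.61, Cdk4 by 0.62, B3gnt3 by 0.64 and Stub1, a ubiquitin ligase, by 0.33. None of these 4 falls passed without the 3 poorly correlated libraries. Of 7 tested genes of the cytokine route that induces PD-L2, 4 rose (median 1.02): Csf2ra by 1.88, Irf4 by 1.16, Il4ra by 1.01 and Il13ra1 by 1.33. Stat6, the factor downstream of the interleukin-4 receptor, was at 0.12 ± 0.172 (limma adjusted p = 0.639), and 3 of the 7 rose without the 3 libraries. Il13 was listed at 0 in all mutant anti-PD-1 and all vector PBS tumours.

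Markers of other cells moved in the same comparison. Of 15 macrophage and monocyte genes 12 rose (median 1.98), and their summed level was 943 to 2330 FPKM with PBS and 3500 to 8930 FPKM with anti-PD-1. All 8 dendritic cell genes rose (median 1.29; 5 without the 3 libraries), and 4 of 8 mature dendritic cell genes, such as Cd40 and Ccr7. All 8 fibroblast genes rose (median 2.04), and 0 did without the 3 libraries. Skeletal muscle genes summed to 0.547 to 1050 FPKM with PBS and 93 to 1600 FPKM with anti-PD-1, with 1 of 10 past the threshold, 8 without mutant PBS tumour 3 and 0 without the 3 libraries. With a muscle score in the fit the changes were 3.01 for Pdcd1, 2.14 for Cd274 and 2.25 for Pdcd1lg2, all past the threshold. Of 10 cell cycle genes 0 rose and 3 fell (median -0.51), and 1 of 3 epithelial genes fell. Without the 3 libraries 1 cell cycle gene (median -0.06) and 0 epithelial genes fell. The part of macrophages, dendritic cells and stroma in the levels of the ligands was not tested.

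Within 500 kb of Cd274, 15 other genes were tested in the anti-PD-1 against PBS comparison of mutant tumours. Of these 6 rose and 1 fell (median 0.49), beside 15.9% and 14.6% of all genes and their median of -0.10. Pdcd1lg2 had the largest change among them (2.57), followed by Ak3 (1.33), Insl6 (1.01), Plgrkt (0.79), Plpp6 (0.78) and Jak2 (0.62), and Rcl1 was at -0.60. Insl6 and Jak2 lie upstream of Cd274, and Plgrkt shares its promoter region. The antisense gene AC119228.1 inside Cd274 was at 0.49 and did not pass (limma adjusted p = 0.204). The window of Pdcd1lg2 reached one further gene that rose, Il33 (1.47). Within 500 kb of Pdcd1, 10 genes were tested, of which 0 rose and 2 fell (median -0.08), beside 15.9% and 14.6% of all genes.

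**Figure D5:**
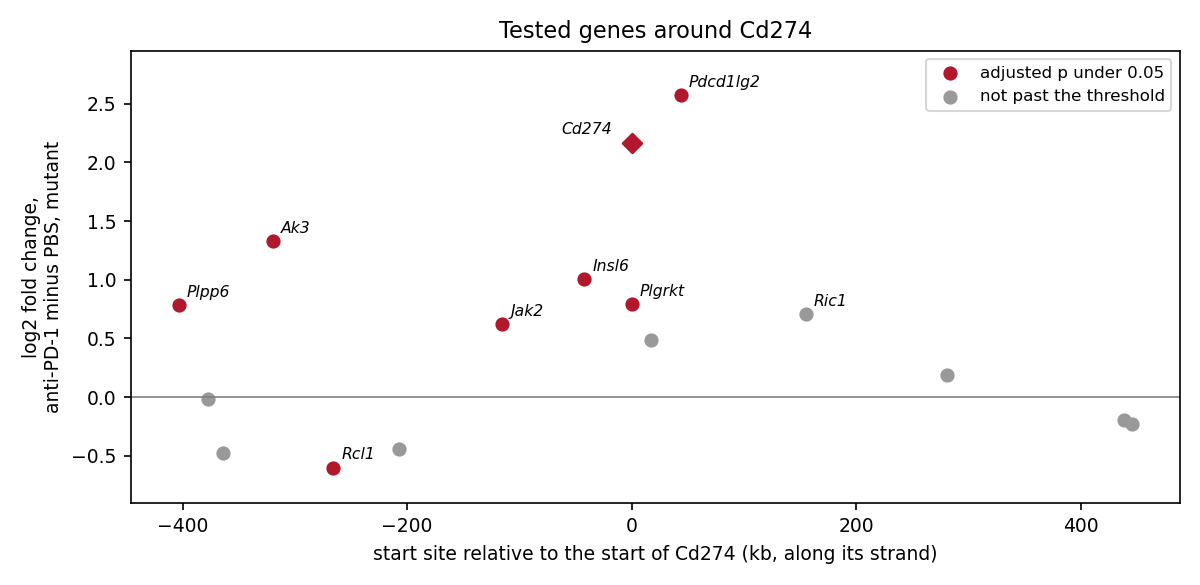
Log2 fold change of anti-PD-1 against PBS in mutant tumours (vertical axis) for tested genes around Cd274, by distance of their start site from that of Cd274 in kb (horizontal axis). Red marks genes past the threshold, and Pdcd1lg2 (2.57) and Cd274 (2.17, diamond) stand above the other 14.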

How the data were processed

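The authors deposited 1 value per gene and library for 20 tumours, taken as FPKM: the header names no unit, and Cuffnorm is among the tools named, per the submitters' processing notes, with FastQC, STAR 2.5, DESeq and mm10, without role or order. Annotation, strand and the handling of multi-mapped reads: not given in the sources used here. Of 55335 genes, 55154 matched GENCODE vM21 symbols. In 1 file extra columns were empty. Depth is unknown: low values gave whole reads (within 5%) for only 22% to 44.1% of values.

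The 13982 genes that reached 1 FPKM in 5 or more libraries were fitted as log2(FPKM + 1) with limma 3.58.1 (R 4.3.3, intensity trend), all 20 libraries, 4 group means and a term for the form of the animal identifier (M and a number in 11 libraries, a number in 9), since the files hold no counts. P-values were adjusted by Benjamini-Hochberg over all tested genes, threshold 0.05. Score fits added a list's mean log2(FPKM + 1). Ratios were tested by exact two-sided permutation (5 against 5, 252 arrangements) and relations by 100000 resamples, in Python 3.11.15 with scipy 1.17.1. The fit was tested on simulated data. Alternatives were another pseudocount (0.1), no filter, upper-quartile scaling, array weights, no trend, no identifier term, subsets of libraries and other reference genes.

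The 3 genes, the 25 gene lists and the tests were chosen with earlier results of these data known. Genes named are the 3, up to 4 list members of smallest p and any the sentence counts, the 10 and 5 most correlated genes, and genes within 500 kb. Cd80, Irf1, Ptpn11, Rgmb, Stat6, Tigit and similar list members outside the 4 smallest p were named for their role. Some named genes and a planned second interferon reference are not reported here. Predicted genes and receptor segments were left out of the likeness lists.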

Additional observations from a re-analysis of the deposited data

Results flagged for a closer look

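Tumour 3 of the mutant PBS group stood apart from its 4 companions in Pdcd1, at 6.36 FPKM, and in Pdcd1lg2, at 3.98 FPKM. Its T cell score was also the highest of the group, and its part in the relations is given with and without it. Tumour 4 of the mutant anti-PD-1 group stood apart in Pdcd1lg2, at 13.3 FPKM against 9.57 to 10.3 in the other 4. Of 24 groups of 5 values looked at, chance flags about 1 in 20.

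The anti-PD-1 response differed between mutant and vector tumours by 2.81 for Pdcd1 and by 2.60 for Pdcd1lg2 on the log2 scale, each past the threshold of limma's test of the difference.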

How the results depend on the processing

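Depth is unknown, so no counting error is given for Pdcd1 and Pdcd1lg2, which were under 1 FPKM in most libraries, and the 5 tumours per group set the precision. The mutant anti-PD-1 group lies outside the range of the T cell score elsewhere. No paired analysis was possible because the labels carry animal identifiers and no replicate numbers shared between groups. Each cause of a change below was not tested, except that subsets hold fewer libraries.

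Anti-PD-1 against PBS in mutant tumours kept its call for Pdcd1 and Pdcd1lg2 in all 11 other settings. Cd274 missed the threshold with the libraries of M identifiers alone (2.06, adjusted p = 0.0751), as did the response differences of Pdcd1 (1.93, adjusted p = 0.109) and Pdcd1lg2 (2.10, adjusted p = 0.0597). That of Cd274 passed with array weights (1.23, adjusted p = 0.0198) and ran from 1.10 to 1.86 when 1 library was left out.

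The Cd274 difference between mutant and vector under PBS passed with array weights (1.51, adjusted p = 0.000179) and without the 3 poorly correlated libraries (1.53, adjusted p = 0.00488). The exact permutation test (1.53) is not adjusted over genes and restates that the groups did not overlap. The Cd274 difference ran from 1.24 to 1.78 with 1 library left out. For Pdcd1lg2 it turned negative with array weights (-0.13) and number-only libraries (-0.41), and ran from -0.09 to 0.42.

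The Pdcd1lg2 change in vector tumours, near 0, turned positive with a pseudocount of 0.1 (0.05), without the 3 libraries (0.03) and with M identifiers alone (0.17), and ran from -0.15 to 0.12.

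Genes called for anti-PD-1 in vector tumours numbered 5 with array weights and 1 with number-only libraries, against 0. In mutant tumours 4271 were called, 6460 with array weights, 2473 with a muscle score and 2754 to 6785 with 1 library left out (lowest without mutant anti-PD-1 tumour 1, highest without vector anti-PD-1 tumour 1). Between genotypes under PBS 203 were called, 2710 with array weights, 1643 without the 3 libraries, 12 with M identifiers and 83 to 752 with 1 left out. Response differences numbered 1308, 3214 with array weights, 387 without the 3 libraries and 688 to 2247 with 1 left out.

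Ratios that turned sign were all far from the threshold. Pdcd1 over CD3 in vector tumours was 0.09 with another pseudocount, 0.37 with other reference genes and 0.26 without the 3 libraries (-0.20 to 0.26 with 1 left out). Cd274 over interferon genes between genotypes under PBS ran from -0.19 to 0.07 with 1 left out. Pdcd1lg2 over macrophage genes in vector tumours was 0.07 with other reference genes (-0.28 to 0.09 with 1 left out).

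With the CD3 genes as T cell score, the Pdcd1lg2 genotype difference under anti-PD-1 was -0.02. Fits chosen after seeing the data left out mutant PBS tumour 3 or the 3 libraries. Without that tumour the T cell slopes were 0.12 for Pdcd1 and 0.65 for Pdcd1lg2, the Pdcd1 interferon slope was 0.26, the Cd274 vector response at equal T cell score was -0.18, the mutant responses 3.39 for Pdcd1, -4.27 for Cd274 and 1.31 for Pdcd1lg2, and the Pdcd1 vector response at equal interferon score 0.23. Without the 3 libraries the Cd274 T cell slope passed (1.12) and the Pdcd1 interferon slope did not (0.44). At equal T cell score the genotype difference under anti-PD-1 was then 0.23 for Cd274 and -0.04 for Pdcd1lg2, and at equal interferon score the vector responses were 0.11 for Pdcd1 and 0.20 for Cd274.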
